A study of Mus musculus with 24 samples.

Results

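The clustered protocadherins are cell surface proteins of the cadherin superfamily, encoded by 3 neighbouring gene clusters, alpha, beta and gamma. All genes whose symbol names a member of these clusters were taken from the count tables, which gave 59 of 26411 genes, with 15 in the alpha, 22 in the beta and 22 in the gamma cluster. All 59 lie on the plus strand of mouse chromosome 18, between positions 37063237 and 37975014 of the mm39 build. The genes stand in a row from alpha through beta to gamma. The choice rested on names and not on measured values.

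Each beta gene is a single large coding exon. In the alpha and gamma clusters, each isoform joins its own first exon to constant exons that all isoforms of the cluster share and that encode a common cytoplasmic domain. Most first exons have their own promoter, and in maturing neurons a cell chooses a few of these alternate isoforms, a choice that involves the DNA-binding protein CTCF, cohesin and removal of DNA methylation. The resulting combination of proteins on the surface is known for letting a neuron tell its own branches from those of other neurons. The C-type isoforms at the ends of the alpha and gamma clusters (Pcdhac1, Pcdhac2, Pcdhgc3, Pcdhgc4 and Pcdhgc5) are regulated apart from this choice.

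Messenger RNA was sequenced in 24 libraries of neural stem and progenitor cells (NSPCs) from the dorsal telencephalon, from which the cerebral cortex forms, of C57BL/6 mouse embryos at E12.5. The embryos were Kat6a+/+, Kat6a+/- or Kat6a-/-, and the mutant allele is a germline deletion of exons that leads to a premature stop in the catalytic domain of the histone acetyltransferase KAT6A. Cells were cultured for 3 days with the growth factors FGF2 and EGF (proliferating) or for 3 days on poly-L-ornithine and laminin in medium with serum (differentiating), with 4 libraries for each genotype in each condition. Each library came from 1 embryo, the proliferating libraries from 5 litters and the differentiating libraries from 7. Only litters 4633 and 4746 gave both Kat6a+/+ and Kat6a-/- libraries, in either condition, so litter and genotype were partly confounded. RNA of the 2 conditions was extracted with different kits, and the effect of the kit cannot be told apart from that of the condition.

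Library totals ranged from 7826660 to 40838203 counts, and proliferating Kat6a+/+ replicate 1 was the deepest. Counts over the whole Kat6a gene averaged 395, 353 and 355 CPM (read counts scaled by TMM-adjusted library totals) in proliferating and 267, 236 and 191 CPM in differentiating Kat6a+/+, Kat6a+/- and Kat6a-/- NSPCs, and since the remaining exons are still counted, they do not check the genotypes. All 10 neural stem cell and radial glia markers averaged at least 1 CPM in every group. The 6 microglia markers averaged under 1 CPM in every group. In both conditions Xist reads were found in 1 of 4 Kat6a+/+, 3 of 4 Kat6a+/- and 3 of 4 Kat6a-/- libraries, so sex and genotype were partly confounded. Of 6 embryo labels that occur in both conditions, 1 carried Xist reads in its proliferating library (Kat6a+/+ replicate 1) and Y-linked reads in its differentiating library (Kat6a+/+ replicate 1), so this label cannot hold for both. These reads do not show which of the 2 libraries is mislabelled, so counts of called members are also given without each of them. Kat6a+/+ replicate 2 came from litter 4346 in proliferating (Y-linked reads) and from litter 4364 in differentiating NSPCs (Xist reads). These litter numbers were used as given, and whether they name the same litter is not known. In bulk RNA, fewer cells of a type and less RNA per cell cannot be told apart.

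Because isoforms of a cluster share exons, the counts of alpha and gamma genes rest on unequal shares of sequence. Of the annotated exon bases, between 32.6% and 71.6% belonged to 1 gamma gene alone. Beta genes had 100% exon bases of their own apart from Pcdhb21 (90.3%) and Pcdhb22 (93.1%), although Pcdhb10 lies inside the annotated span of Pcdhb9. How reads over the constant exons, which overlap several genes, were assigned is not given in the sources used here. In this respect the levels of alpha and gamma isoforms are less certain than those of beta genes. Own exons also differed in how unique their sequence was among members. Of their 50-base stretches, 88.0% (Pcdhb12) to 100% (Pcdhb1) were unique in beta genes. In gamma genes the range was from 83.2% (Pcdhgb1) to 100%, the value of all C-type isoforms.

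Levels were compared between genes as CPM per kilobase of the deposited gene length (RPKM), averaged over the 24 libraries. Pcdhgc3, a C-type isoform known to promote dendrite branching through Axin1, stood far above all other members at 157 RPKM. The next gamma gene, Pcdhgb6, was at 5.14 RPKM. Among beta genes the highest were Pcdhb17 (7.35 RPKM) and Pcdhb20 (7.28 RPKM), and Pcdhb19 was at 5.91 RPKM. When CPM were divided by own exon bases, Pcdhb20 came first, followed by Pcdhb19 and Pcdhb17. In the alpha cluster, Pcdhac2 was at 2.18 RPKM over both conditions together, and the other 14 genes were at or below 0.27 RPKM. Pcdhac2 is known for its role in the spacing of serotonergic axons. The per-kilobase share of the gamma cluster taken by its C-type isoforms was 83.5% ± 1.41 (SD, n = 4) in proliferating and 76.6% ± 1.03 (SD, n = 4) in differentiating Kat6a+/+ NSPCs.

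**Figure D1:**
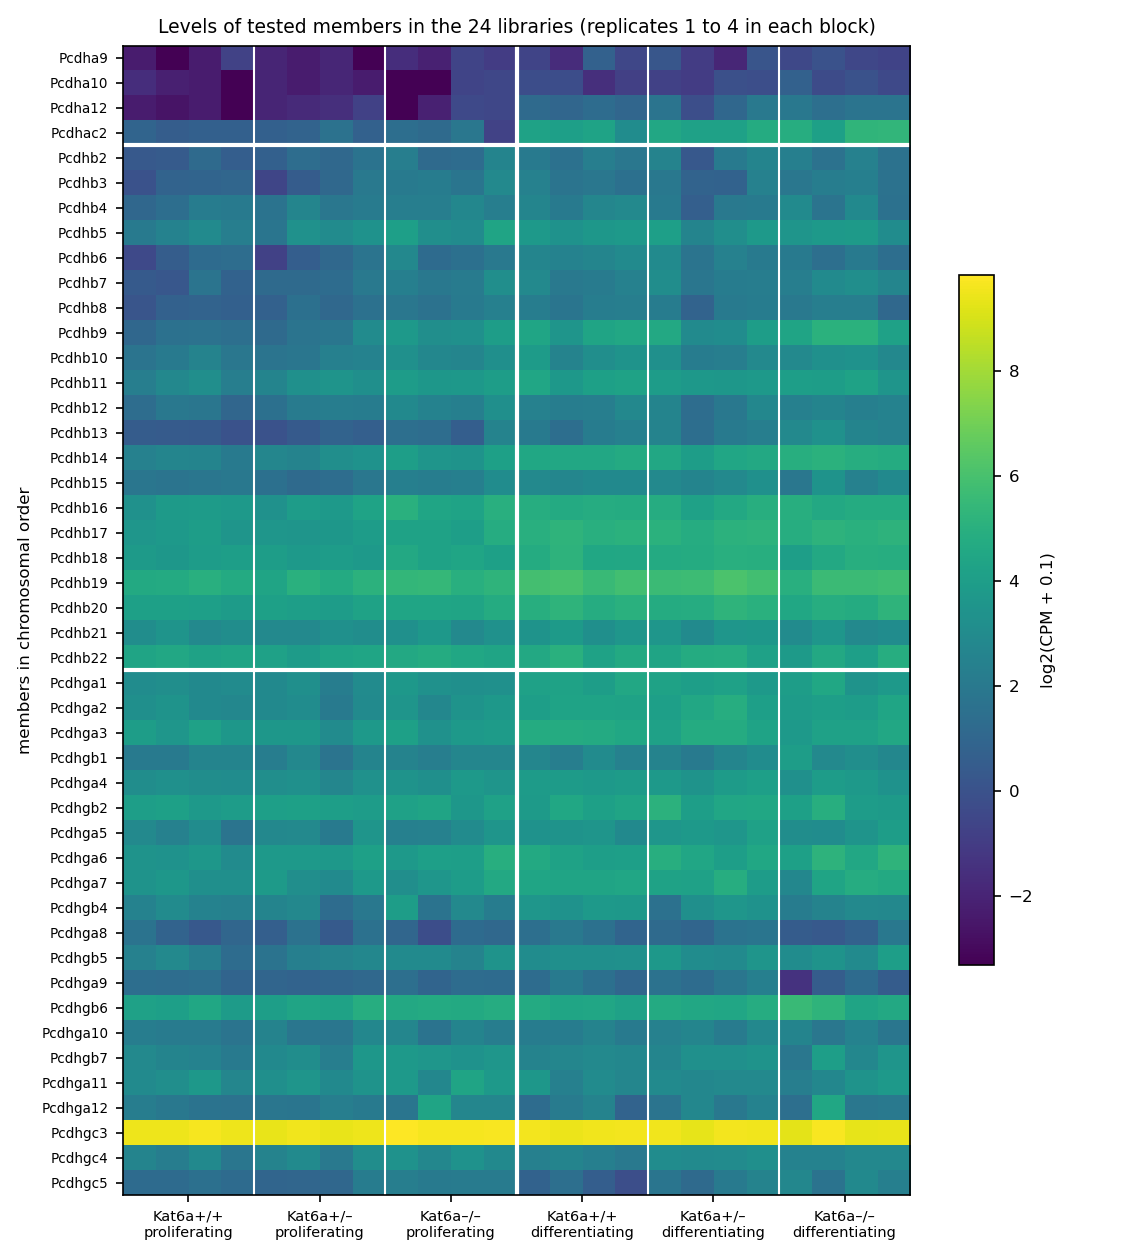
Level of each of the 46 tested members in each of the 24 libraries, as log2(CPM + 0.1), with members in chromosomal order from top to bottom and libraries in blocks of 4 by genotype and condition. Pcdhgc3 is the brightest row in every library, and the alpha rows are dark in proliferating libraries. Most beta rows brighten from proliferating Kat6a+/+ to proliferating Kat6a-/-, and from proliferating to differentiating Kat6a+/+.

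Not every member could be tested. Among protein-coding genes that passed a filter on low counts, 43 members were tested in proliferating NSPCs (1 alpha, 21 beta, 21 gamma) and 46 in differentiating NSPCs (4 alpha, 21 beta, 21 gamma). Pcdhb1 had 5 counts in all 24 libraries together, and Pcdhgb8 is annotated as a transcribed pseudogene. A member that passed the filter only through the group where it is high had to differ, so the counts below describe the tested members and not all members. Calls were made with limma, at a threshold of 0.05 on the false discovery rate (FDR).

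To ask how the clusters respond to loss of KAT6A while cells divide, the proliferating Kat6a-/- libraries were set against those of Kat6a+/+. Of 43 tested members, 24 were higher and 0 were lower in Kat6a-/-, beside 30% of all tested genes called, 16.2% higher and 13.8% lower. The rise was carried by the beta cluster, in which 19 of 21 genes were higher, with a median log2 fold-change of 1.11 against a median of -0.00 over all genes tested. In the gamma cluster 5 of 21 were higher (median 0.38), and Pcdhac2, the 1 alpha isoform tested, did not pass (log2 fold-change 0.21 ± 0.43 SE, FDR 0.731). The study named protocadherin genes among those raised in Kat6a-/- cells from these same libraries, so the direction is not independent evidence. The fold-change was above 0 for 40 of the 43 members, beside 49.4% of all tested genes. In 22 members all 4 Kat6a-/- libraries lay above all 4 Kat6a+/+ libraries, beside 13.7% of all tested genes.

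The beta genes summed to 140.5, 161.7, 175.1 and 149.7 CPM in the Kat6a+/+ libraries, replicates 1 to 4. They summed to 137.7, 166.5, 170.7 and 206.8 CPM in Kat6a+/- and to 289.5, 244.1, 221.0 and 308.9 CPM in Kat6a-/-. All 4 Kat6a-/- sums exceeded every Kat6a+/+ and every Kat6a+/- sum. The lowest sums of Kat6a+/+ and Kat6a+/- both came from litter 4113. The highest sums of Kat6a+/- and Kat6a-/- both came from litter 5063, which gave no Kat6a+/+ library. The ratio of the means of Kat6a-/- to Kat6a+/+ was 1.70. The alternate gamma isoforms went from 145 ± 15.9 CPM in Kat6a+/+ to 198 ± 19.4 CPM in Kat6a-/- (SD, n = 4), a ratio of 1.37. The whole alpha cluster summed to only 2.08 ± 0.29 CPM and 3.58 ± 1.29 CPM (SD, n = 4) in these groups.

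**Figure D2:**
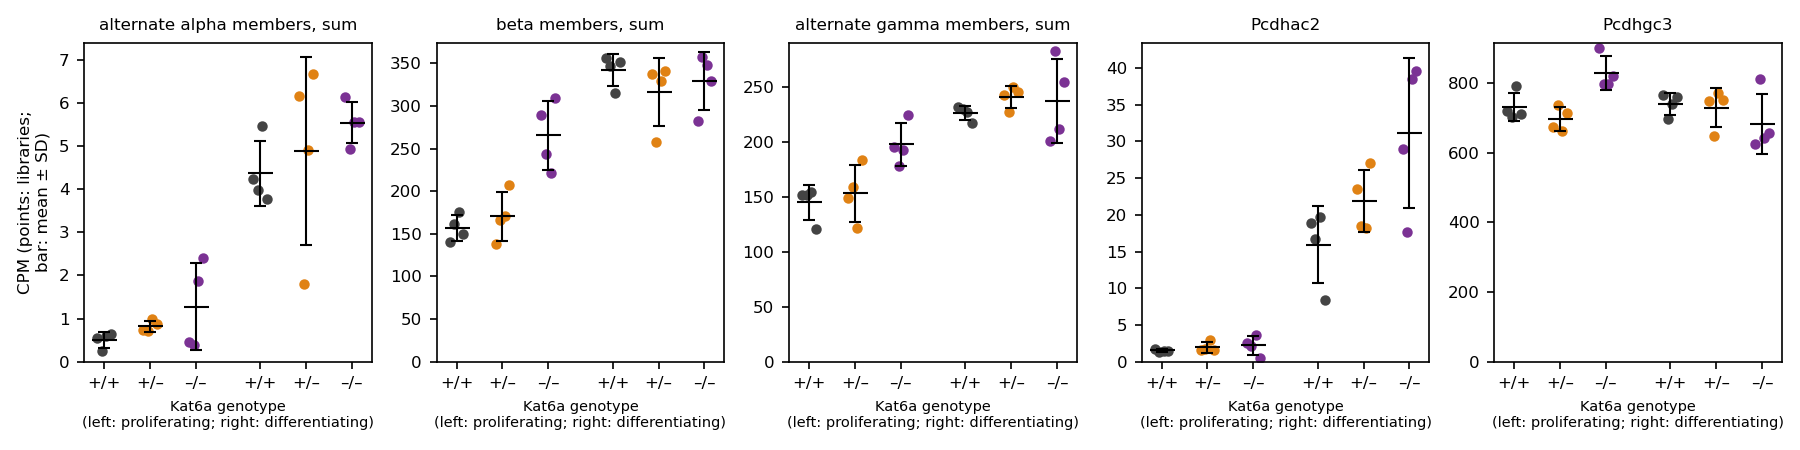
Summed CPM of the alternate alpha, beta and alternate gamma isoforms and the CPM of Pcdhac2 and Pcdhgc3 in each library, by genotype and condition, with 1 point a library and bars for mean ± SD. The 4 proliferating Kat6a-/- beta sums (221.0 to 308.9 CPM) lie above the 4 Kat6a+/+ sums (140.5 to 175.1 CPM), and in differentiating NSPCs the beta sums of the 3 genotypes overlap.

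Pcdhb9 had the largest rise of any called member. It was at 2.00, 2.89, 3.02 and 2.66 CPM in proliferating Kat6a+/+ libraries, at 2.25, 3.21, 3.43 and 8.01 CPM in Kat6a+/- and at 13.9, 8.76, 9.53 and 16.1 CPM in Kat6a-/-. Every Kat6a-/- library was above every library of the other genotypes. The log2 fold-change in Kat6a-/- vs. Kat6a+/+ was 2.19 ± 0.27 (SE, FDR 0.000134), and it lay between 1.96 and 2.31 when single libraries were left out.

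Pcdhb17, the beta gene with the highest mean RPKM, rose less. It was at 11.9, 13.6, 15.8 and 11.3 CPM in Kat6a+/+, at 11.7, 11.6, 12.2 and 15.2 CPM in Kat6a+/- and at 18.9, 19.2, 16.3 and 28.2 CPM in Kat6a-/- proliferating libraries. The lowest Kat6a-/- library stood just above the highest library of the other genotypes. Its log2 fold-change was 0.66 ± 0.15 (SE, FDR 0.00528).

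Pcdhb8 was at 1.01, 1.56, 1.71 and 1.52 CPM in Kat6a+/+ and at 3.62, 2.96, 4.16 and 5.19 CPM in Kat6a-/- proliferating libraries. The groups did not overlap, and the log2 fold-change was 1.54 ± 0.26 (SE, FDR 0.000921). Pcdhb13 was at 1.31, 1.26, 1.21 and 0.888 CPM in Kat6a+/+ and at 2.72, 2.45, 1.42 and 5.68 CPM in Kat6a-/- (log2 fold-change 1.11 ± 0.33 SE, FDR 0.0233). These groups did not overlap, although Kat6a-/- replicate 3 lay just above the Kat6a+/+ range, and the call was lost without Kat6a-/- replicate 4 (log2 fold-change 0.79) and without Kat6a+/+ replicate 1 (log2 fold-change 1.17, FDR 0.0675). Pcdhb6 was at 0.657, 1.38, 2.31 and 2.54 CPM in Kat6a+/+ and at 6.91, 2.32, 2.74 and 3.89 CPM in Kat6a-/-. Here the groups overlapped, and the log2 fold-change of 1.38 ± 0.48 (SE, FDR 0.0451) fell to 0.83 without Kat6a+/+ replicate 1 and to 0.47 with litter as a fixed term. This call was kept in 5 of 12 fits that left out a library.

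The remaining called beta genes ranged in log2 fold-change from 0.44 for Pcdhb19 (FDR 0.0256) to 1.75 for Pcdhb7 (FDR 0.00173). Both exceptions, Pcdhb21 (0.17 ± 0.18 SE, FDR 0.50) and Pcdhb22 (0.22 ± 0.12 SE, FDR 0.181), stand at the gamma end of the cluster. The rise was larger at the alpha end. All 10 tested genes among the first 11 in chromosomal order (Pcdhb1 to Pcdhb11) were called, with a median log2 fold-change of 1.32 and a range from 0.91 to 2.19. Among the last 11 (Pcdhb12 to Pcdhb22), 9 were called, with a median of 0.66. The summed level of the first stretch went from 30.0 ± 8.25 to 75.1 ± 19.5 CPM (SD, n = 4), a ratio of 2.51, and that of the last stretch from 127 ± 7.74 to 191 ± 22.6 CPM (SD, n = 4), a ratio of 1.50. Across the 21 tested beta genes, Spearman's rho between order and log2 fold-change was -0.77. Order and the Kat6a+/+ level in RPKM also went together (rho 0.79), as did level and fold-change (rho -0.76), so that position and starting level cannot be told apart. These values are descriptions, since the genes share libraries and depth.

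**Figure D3:**
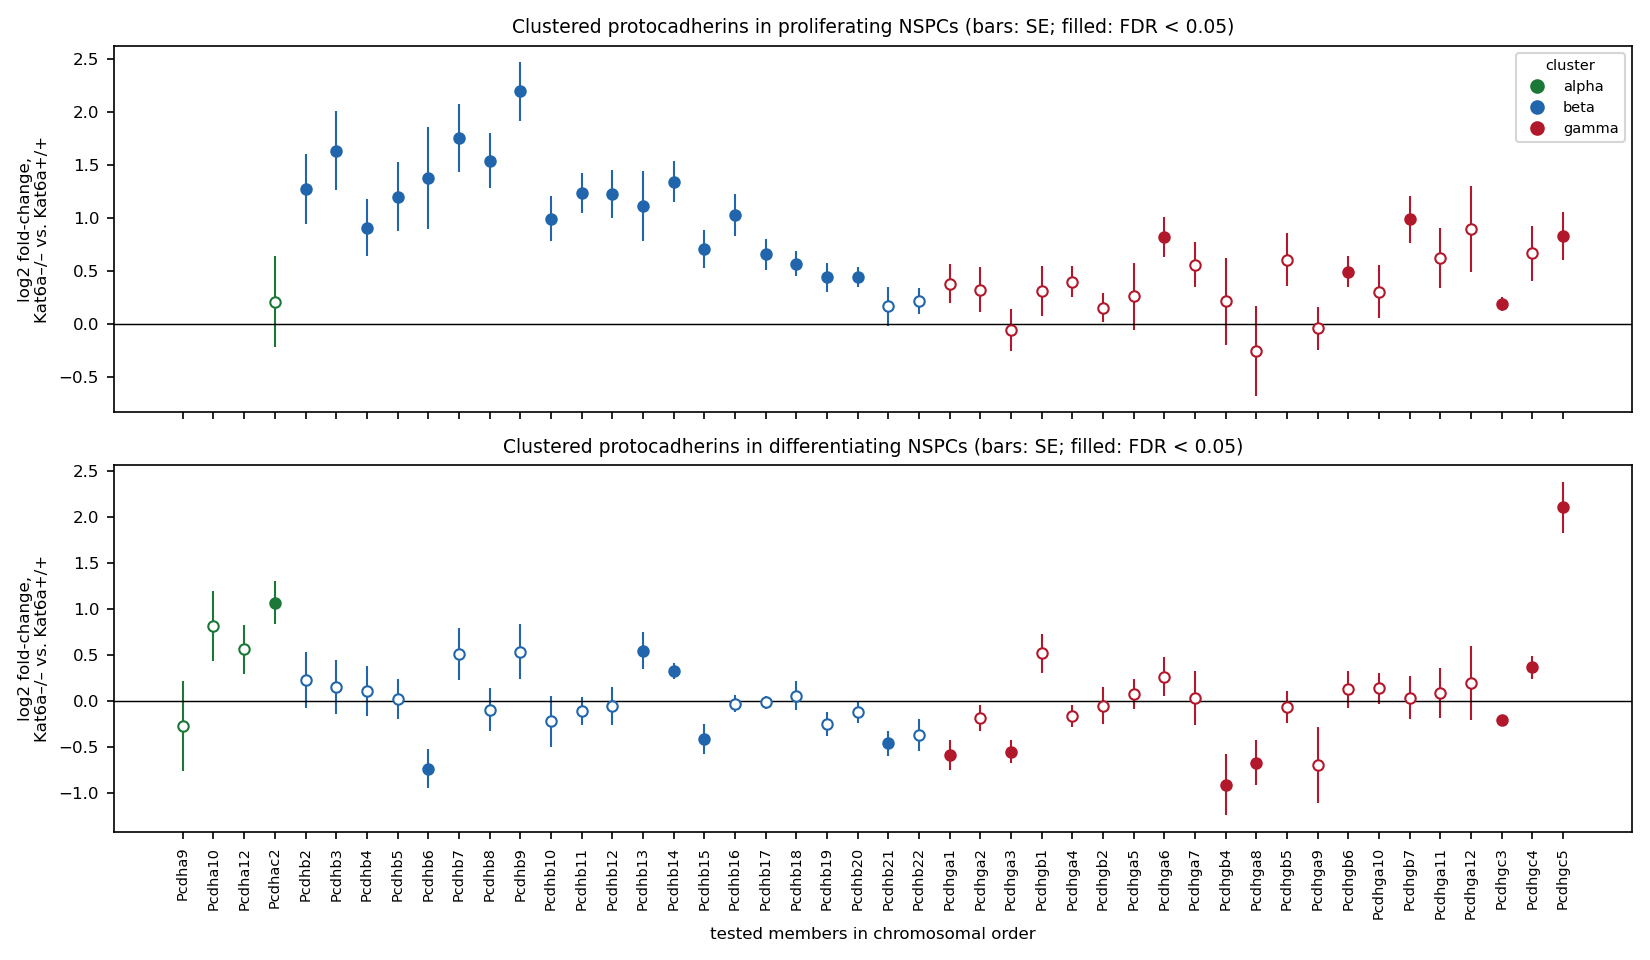
Log2 fold-change (with SE) in Kat6a-/- vs. Kat6a+/+ for each tested member in chromosomal order, in proliferating (one panel) and differentiating (other panel) NSPCs, with alpha, beta and gamma in separate colours and called members filled. In proliferating NSPCs the beta genes run from 2.19 for Pcdhb9 down to 0.17 for Pcdhb21, and in differentiating NSPCs they lie between -0.74 and 0.55.

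Levels were more even across the beta cluster in Kat6a-/-. The effective number of beta genes, which is the exponential of the Shannon entropy of their per-kilobase shares and equals the number of genes when all have the same level, was 15.9 ± 0.793 in Kat6a+/+ and 17.9 ± 0.428 in Kat6a-/- (SD, n = 4). The lowest Kat6a-/- value was 17.3 and the highest Kat6a+/+ value was 16.7. Both means were 15.9 and 17.9 again when each library was thinned to the smallest library total.

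Gamma isoforms moved less. Pcdhgb7, the called gamma isoform with the largest rise, was at 7.28, 5.95, 5.53 and 4.06 CPM in Kat6a+/+, at 7.32, 8.72, 4.82 and 12.1 CPM in Kat6a+/- and at 13.9, 11.9, 10.4 and 11.9 CPM in Kat6a-/- proliferating libraries. All Kat6a-/- libraries exceeded the Kat6a+/+ libraries, and the log2 fold-change was 0.99 ± 0.22 (SE, FDR 0.00549). Pcdhga6 (0.82 ± 0.19 SE, FDR 0.00661) and Pcdhgb6 (0.49 ± 0.14 SE, FDR 0.0208) also rose. By type, 1 of 12 gamma A and 2 of 6 gamma B isoforms were called. Unlike in the beta cluster, order and fold-change had a positive rho of 0.41 over the 18 tested alternate gamma isoforms.

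Of the C-type isoforms, Pcdhgc5 and Pcdhgc3 passed the test. Pcdhgc5 was at 2.33, 2.28, 2.82 and 2.28 CPM in Kat6a+/+, at 1.85, 1.91, 1.96 and 4.49 CPM in Kat6a+/- and at 4.75, 4.00, 4.27 and 4.29 CPM in Kat6a-/- proliferating libraries. The Kat6a+/+ and Kat6a-/- ranges did not overlap, and the log2 fold-change was 0.83 ± 0.22 (SE, FDR 0.0146). Without Kat6a+/+ replicate 1 it was 0.79 and missed the threshold (FDR 0.0629). Pcdhgc3 was at 720, 704, 790 and 710 CPM in Kat6a+/+, at 673, 736, 662 and 714 CPM in Kat6a+/- and at 901, 797, 797 and 820 CPM in Kat6a-/- proliferating libraries, so that Kat6a-/- replicates 2 and 3 lay close to Kat6a+/+ replicate 3. Its log2 fold-change was 0.19 ± 0.06 (SE, FDR 0.0384), small beside those of the beta genes, and the call was kept in 5 of 12 fits that left out a library, over which the value ranged from 0.15 to 0.23. Pcdhgc4, known to be needed for the survival of neurons, was at 6.02, 4.63, 7.55 and 3.43 CPM in Kat6a+/+, at 5.87, 7.72, 3.92 and 8.49 CPM in Kat6a+/- and at 10.3, 6.70, 10.3 and 7.38 CPM in Kat6a-/-, with overlapping groups and a log2 fold-change of 0.67 ± 0.26 (SE, FDR 0.0656).

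In the alpha cluster, Pcdhac2 was at 1.77, 1.38, 1.51 and 1.52 CPM in Kat6a+/+, at 1.53, 1.70, 3.02 and 1.56 CPM in Kat6a+/- and at 2.60, 2.19, 3.61 and 0.499 CPM in Kat6a-/- proliferating libraries. Replicates 1 to 3 of Kat6a-/- were above, and replicate 4 below, all Kat6a+/+ libraries. Pcdhac1 was at or near 0 in every proliferating library, with a highest value of 0.199 CPM.

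Among the 24 calls, 12 were kept under all 23 alternatives, namely Pcdhb7, Pcdhb8, Pcdhb9, Pcdhb11, Pcdhb12, Pcdhb14, Pcdhb16, Pcdhb17, Pcdhb18, Pcdhb20, Pcdhga6 and Pcdhgb7. Without Kat6a+/+ replicate 1, the library whose embryo label cannot hold for both conditions, 15 members were called, 13 of them beta genes, and with litter as a fixed term 13 were called, 10 of them beta genes. Leaving out a library or adding a term also changes how readily any gene passes. These counts alone therefore do not show a change particular to the members. Astrocyte markers moved with genotype in these libraries. The 8 markers summed to between 931 and 1150 CPM in Kat6a+/+ and to between 1559 and 2255 CPM in Kat6a-/-. Of 7 tested markers 5 were called higher, beside 16.2% of all tested genes, and Aqp4 was under 1 CPM in both groups. Gfap averaged under 1 CPM in Kat6a+/+ but not in Kat6a-/-. Any marker that passed the filter on low counts only through the group where it is high had to differ. Markers of dividing cells summed to between 2705 and 3036 CPM in Kat6a+/+ and to between 1522 and 2727 CPM in Kat6a-/- (4 of 8 lower). Neuron markers summed to between 1484 and 1662 CPM and between 1590 and 1724 CPM, with 3 of 9 tested markers lower and 1 higher (median log2 fold-change -0.23). The part of these cell types in the protocadherin values was not tested.

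**Figure D4:**
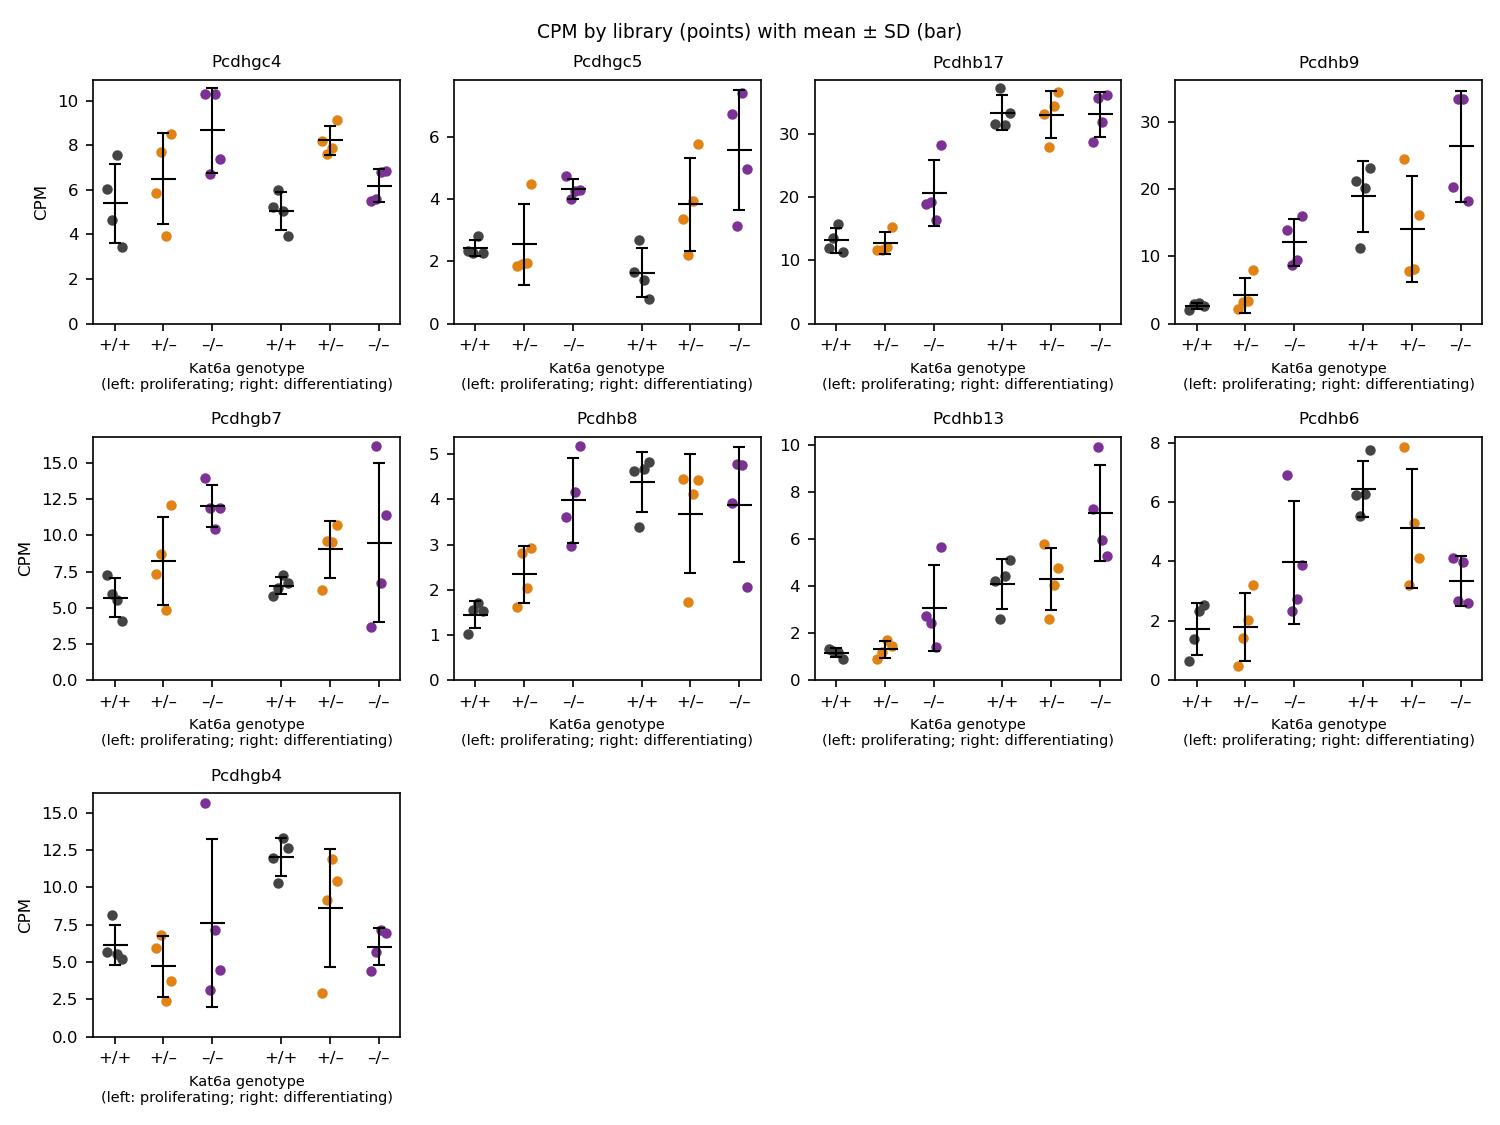
CPM of 9 members in each library, by genotype and condition, with 1 point a library and bars for mean ± SD. In proliferating NSPCs the Kat6a-/- points of Pcdhb9 (8.76 to 16.1 CPM) clear the Kat6a+/+ points (2.00 to 3.02 CPM), and in differentiating NSPCs the Kat6a-/- points of Pcdhgc5 (3.13 to 7.41 CPM) clear those of Kat6a+/+ (0.797 to 2.68 CPM).

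To ask whether loss of a single allele changes the clusters, Kat6a+/- and Kat6a+/+ NSPCs were compared. By limma, 0 members were called in either condition, beside 0% of all tested genes in both. At an unadjusted p under 0.05 there were 5 of 43 members in proliferating and 7 of 46 in differentiating NSPCs, beside 912 of 12273 and 1925 of 13335 of all genes. edgeR also called 0 members in both conditions, and DESeq2 called 0 in proliferating and 1 in differentiating NSPCs.

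The smallest p in proliferating Kat6a+/- NSPCs was that of Pcdhb8, which was at 1.61, 2.81, 2.04 and 2.93 CPM against 1.01, 1.56, 1.71 and 1.52 CPM in Kat6a+/+. These groups overlapped through Kat6a+/- replicate 1, and the log2 fold-change was 0.79 ± 0.26 (SE, FDR 0.486), or 0.47 without Kat6a+/+ replicate 1. The tested genes of the first beta stretch, Pcdhb1 to Pcdhb11, had fold-changes above 0 in 10 of 10 cases (median 0.54), and those of the last stretch in 5 of 11 (median -0.03), beside 49.8% of all tested genes. As no gene passed the test, these are values only. In differentiating Kat6a+/- NSPCs the smallest p was that of Pcdhgc4, at 8.20, 7.62, 7.90 and 9.14 CPM against 5.23, 6.01, 5.07 and 3.94 CPM in Kat6a+/+. All Kat6a+/- libraries were above all Kat6a+/+ libraries, with a log2 fold-change of 0.69 ± 0.13 (SE, FDR 0.136). Pcdhgc5 had a log2 fold-change of 1.22 ± 0.29 (SE, FDR 0.163) and Pcdhgb4 one of -1.14 ± 0.35 (SE, FDR 0.227).

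When both mutant genotypes were set against each other in proliferating NSPCs, 17 of 43 members were higher in Kat6a-/- and 0 lower, beside 14.8% of all tested genes called, 8.47% higher and 6.3% lower. This comparison uses the same Kat6a-/- libraries as the one above. Of the 17, 14 were beta genes, and the largest difference was again that of Pcdhb9 (log2 fold-change 1.67 ± 0.28 SE). Pcdhgc5 (0.88 ± 0.24 SE, FDR 0.0279), Pcdhgc3 (0.27 ± 0.06 SE, FDR 0.0134) and Pcdhgb7 (0.71 ± 0.22 SE, FDR 0.0452) were the other 3. The call of Pcdhgb7 was kept in 1 of 12 fits that left out a library, with a log2 fold-change of 0.47 without Kat6a+/- replicate 3, and that of Pcdhgc5 in 7 of 12. The count fell to 5 without Kat6a-/- replicate 4, to 7 without Kat6a+/- replicate 1, to 8 without Kat6a-/- replicate 1 and to 10 without Kat6a+/- replicate 2, and it was 16 without Kat6a+/+ replicate 1. How readily any gene passes can also change when a library is left out, so these counts alone do not show a change particular to the members.

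Differentiating Kat6a-/- NSPCs were compared with Kat6a+/+ in the same way. Of 46 tested members, 5 were higher and 8 were lower, beside 54.4% of all tested genes called, 26.7% higher and 27.7% lower. The share called among the members was thus below that of all genes. The median log2 fold-change of the members was 0.00, that of the beta genes -0.03 and that of the gamma genes 0.03. With library totals in place of TMM scaling, 2 members were higher and 12 lower. The beta genes summed to 342 ± 18.4 CPM in Kat6a+/+, to 316 ± 39.7 CPM in Kat6a+/- and to 330 ± 33.7 CPM in Kat6a-/- (SD, n = 4), and the sums of the 3 genotypes overlapped.

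The largest called change was that of a C-type isoform. Pcdhgc5 was at 1.65, 2.68, 1.40 and 0.797 CPM in Kat6a+/+, at 3.38, 2.21, 3.95 and 5.78 CPM in Kat6a+/- and at 6.74, 3.13, 7.41 and 4.97 CPM in Kat6a-/- differentiating libraries. All Kat6a-/- libraries exceeded all Kat6a+/+ libraries, and the fitted log2 fold-change was 2.11 ± 0.28 (SE, FDR 6.05e-05). The fit weights libraries by quality, and Kat6a-/- replicate 3, which carried 68.9% of the weight of its group, had the highest level. Without that library the log2 fold-change was 1.45, and without Kat6a-/- replicate 1 it was 1.62. Both missed the threshold, while the call was kept under all 11 alternatives that left out no library.

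Pcdhac2 was at 18.9, 16.8, 19.7 and 8.34 CPM in Kat6a+/+, at 23.6, 18.5, 18.2 and 27.0 CPM in Kat6a+/- and at 29.0, 17.6, 38.6 and 39.6 CPM in Kat6a-/- differentiating libraries. Replicate 2 of Kat6a-/- fell within the Kat6a+/+ range and the other 3 lay above it. The log2 fold-change was 1.07 ± 0.23 (SE, FDR 0.00209) and fell to 0.43 without Kat6a-/- replicate 3 and to 0.64 without Kat6a-/- replicate 1. Pcdhac1 stayed low, at 0.440, 0.546, 0.193 and 0.168 CPM in Kat6a+/+, at 0.422, 0.535, 0.0556 and 0.135 CPM in Kat6a+/- and at 0.138, 0.531, 0.603 and 0.517 CPM in Kat6a-/-.

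Pcdhgc4 was at 5.23, 6.01, 5.07 and 3.94 CPM in Kat6a+/+ and at 5.51, 5.58, 6.81 and 6.85 CPM in Kat6a-/- differentiating libraries. The groups overlapped, and the log2 fold-change was 0.37 ± 0.13 (SE, FDR 0.027). It fell to 0.18 without Kat6a-/- replicate 3 and to 0.29 without replicate 1, and the call was also lost without Kat6a+/+ replicate 1 and was kept under 3 of the 11 alternatives that left out no library. Pcdhgc3 went the other way, with 764, 696, 741 and 761 CPM in Kat6a+/+ against 623, 811, 643 and 655 CPM in Kat6a-/-. Kat6a-/- replicate 2 was the highest of these libraries and the other 3 Kat6a-/- libraries were below the Kat6a+/+ range (log2 fold-change -0.21 ± 0.06 SE, FDR 0.0126, and -0.03 without Kat6a-/- replicate 3 or -0.05 without replicate 1).

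In the beta cluster Pcdhb13 and Pcdhb14 were higher, and Pcdhb6, Pcdhb15 and Pcdhb21 were lower. Pcdhb13 was at 4.24, 2.62, 4.44 and 5.12 CPM in Kat6a+/+ and at 7.29, 9.93, 5.97 and 5.30 CPM in Kat6a-/- differentiating libraries. The Kat6a-/- libraries all lay above the Kat6a+/+ range, with a log2 fold-change of 0.55 ± 0.21 (SE, FDR 0.0379). The value was 0.98 without Kat6a-/- replicate 3, 0.84 without Kat6a-/- replicate 1 and 0.22 with a term for sex-linked reads. The call was lost in each of these fits and without Kat6a+/+ replicate 1 or 3, and was kept under 4 of the 11 alternatives that left out no library. Pcdhb6 was at 6.22, 5.52, 6.28 and 7.76 CPM in Kat6a+/+ and at 4.13, 2.66, 3.98 and 2.58 CPM in Kat6a-/-, without overlap and with a log2 fold-change of -0.74 ± 0.21 (SE, FDR 0.0107). Pcdhb17 and Pcdhb9, which rose in proliferating NSPCs, had log2 fold-changes of -0.01 ± 0.07 (SE, FDR 0.891) and 0.54 ± 0.30 (SE, FDR 0.148). Pcdhb17 was at 31.4, 37.1, 31.3 and 33.3 CPM in Kat6a+/+ and at 28.6, 35.7, 31.8 and 36.0 CPM in Kat6a-/-. Pcdhb9 was at 21.3, 11.3, 20.2 and 23.1 CPM in Kat6a+/+ and at 20.3, 33.4, 33.4 and 18.2 CPM in Kat6a-/-, so its groups overlapped.

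Among alternate gamma isoforms 0 were higher and 4 were lower (Pcdhga1, Pcdhga3, Pcdhga8 and Pcdhgb4). Pcdhgb4 was at 11.9, 10.3, 13.3 and 12.6 CPM in Kat6a+/+ and at 4.40, 5.68, 7.11 and 6.91 CPM in Kat6a-/- differentiating libraries. Every Kat6a-/- library was below every Kat6a+/+ library, with a log2 fold-change of -0.91 ± 0.33 (SE, FDR 0.035). With a term for sex-linked reads it was -0.49, and the call was lost there and without Kat6a+/+ replicate 1 or 3. The call was kept under 5 of the 11 alternatives that left out no library. Kat6a+/- replicate 1 was lower still, at 2.89 CPM, and the other Kat6a+/- libraries were between 9.16 and 11.9 CPM. In 4 members all Kat6a-/- libraries were above and in 2 all were below the Kat6a+/+ libraries, beside 12.2% and 14.7% of all tested genes.

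These calls were lost when certain single libraries were left out. Without Kat6a-/- replicate 1 or 3, Pcdhb6 was at -0.97 ± 0.40 and -1.03 ± 0.43 (SE). Pcdhgb4 was at -0.94 ± 0.65 and -1.17 ± 0.69 (SE). These fold-changes and that of Pcdhb13 were larger in size than with all libraries, with larger SE. Those of Pcdhgc5, Pcdhac2, Pcdhgc3 and Pcdhgc4 were smaller in size, also with larger SE. With limma, 0 of the 13 were called without Kat6a-/- replicate 1 (4 members at an unadjusted p under 0.05) and 0 without Kat6a-/- replicate 3 (7 members), and edgeR called 3 and DESeq2 called 8 members with all libraries. Without Kat6a+/+ replicate 1, which shares its embryo label with the proliferating library and carried 42.0% of the weight of its group, 5 were higher and 4 lower, and 7 of these 9 were among the 13. Such counts can also move with how many of all genes are called. Markers of dividing cells summed to between 622 and 1038 CPM in Kat6a+/+ and to between 94.1 and 244 CPM in Kat6a-/- differentiating libraries, with 8 of 8 lower. Markers of mesenchyme and meninges summed to between 32.8 and 66.3 CPM and between 43.4 and 277 CPM in these groups. Here 4 of 4 tested markers were higher, and Col3a1, Lum, Dcn and Twist1 were under 1 CPM in both groups. Col1a2 averaged under 1 CPM in Kat6a+/+ but not in Kat6a-/-. Intermediate progenitor markers summed to between 140 and 323 CPM and between 57.8 and 187 CPM, and oligodendrocyte lineage markers to between 1201 and 1421 CPM and between 698 and 1232 CPM. Neuron markers summed to between 593 and 780 CPM and between 532 and 916 CPM, with 5 of 10 lower and 2 higher (median log2 fold-change -0.37). Between these groups, Stmn2 averaged under 1 CPM only in Kat6a+/+ and Snap25 only in Kat6a-/-. A marker that passed the filter on low counts only through the group where it is high had to differ. The part of these cells in the protocadherin values was not tested. Against Kat6a+/-, 4 members were higher (Pcdhb4, Pcdhb14, Pcdhgb1, Pcdhgc5) and 3 lower (Pcdhb21, Pcdhga1, Pcdhgb2) in differentiating Kat6a-/- NSPCs, beside 37.5% of all tested genes called, 19.1% higher and 18.4% lower, and 2 were higher and 7 lower with library totals. Without Kat6a-/- replicate 1 or replicate 3, 0 were called in that comparison (1 and 3 members at an unadjusted p under 0.05), and 3 were called without Kat6a+/+ replicate 1.

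The effect of the culture condition was measured in Kat6a+/+ NSPCs. In differentiating vs. proliferating NSPCs, 32 of 46 members were higher and 0 were lower, beside 73% of all tested genes called, 36.7% higher and 36.3% lower. Among the 32 were Pcdha9, Pcdha10 and Pcdha12, which had passed the filter on low counts through the differentiating libraries alone and so had to differ. Of the 43 members that also passed it in proliferating libraries, 29 were higher and 0 lower. Pcdhac2 rose by 3.19 ± 0.56 (SE, FDR 3.34e-05) on the log2 scale. As a description, Pcdha12 was at 0.101, 0.0601, 0.101 and 0 CPM in proliferating and at 2.20, 1.91, 2.41 and 1.93 CPM in differentiating Kat6a+/+ libraries. In the beta cluster 19 of 21 rose (median 1.35), with Pcdhb9 at 2.93 ± 0.50 and Pcdhb6 at 2.44 ± 0.40 (SE) and with Pcdhb21 and Pcdhb22 again the 2 that did not pass.

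Gamma isoforms divided by position. Of the first 10 alternate gamma isoforms in chromosomal order 8 were higher (median 0.83, with Pcdhga1 at 1.21 ± 0.21 SE), and of the 8 tested among the last 9 only Pcdhgb5 was (0.84 ± 0.26 SE, FDR 0.00712; median of the 8, 0.10). Spearman's rho between order and fold-change was -0.76 over these 18. Among the gamma C-type isoforms 0 of 3 passed, with Pcdhgc3 at 0.02 ± 0.08 (SE, FDR 0.86), Pcdhgc4 at -0.15 ± 0.21 (SE, FDR 0.529) and Pcdhgc5 at -0.72 ± 0.39 (SE, FDR 0.101). Of the 32 calls, 28 were kept under all alternatives. Without proliferating Kat6a+/+ replicate 1, 29 were called and the calls of Pcdhb3, Pcdhb4 and Pcdhgb4 were lost, and without differentiating Kat6a+/+ replicate 1, 31 were called. Markers of other cell states moved with the condition in Kat6a+/+. Those of dividing cells summed to between 2705 and 3036 CPM in proliferating and to between 622 and 1038 CPM in differentiating libraries (8 of 8 lower). Astrocyte markers summed to between 931 and 1150 CPM and between 1810 and 2534 CPM (5 of 8 higher). Intermediate progenitor markers summed to between 48.3 and 80.3 CPM and between 140 and 323 CPM (4 of 4 higher). Of all tested genes, 36.7% were higher and 36.3% lower. Only 2 of these 4 intermediate progenitor markers and 7 of the 8 astrocyte markers passed the filter on low counts in proliferating libraries. Eomes and Neurog2 averaged under 1 CPM in proliferating Kat6a+/+. Markers that passed through the differentiating libraries alone had to differ. Neuron markers summed to between 1484 and 1662 CPM in proliferating and to between 593 and 780 CPM in differentiating libraries (4 of 10 higher, 4 lower). Their median log2 fold-change was 0.54, so the sum and the median went in opposite directions. The part of all these markers in the protocadherin values was not tested.

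To test whether the Kat6a-/- effect differed between conditions, an interaction was fitted over all 24 libraries. This fit and that of the condition had litter as a random block and no term for the 6 embryo labels that occur in both conditions. With embryo label as the block instead, an alternative chosen after seeing the data, the same 9 members were called for the interaction and the same 32 for the condition. The block correlation was 0.00366 with litter and -0.0499 with embryo label. Both fits thus treated the libraries as nearly independent, and the same calls do not show that shared embryos were accounted for. The interaction was negative for 9 of 46 members and positive for 0, beside 13.9% of all tested genes called, 7.58% lower and 6.36% higher. A negative value means that the change in Kat6a-/- was lower in differentiating than in proliferating NSPCs. All 9 were beta genes (Pcdhb5, Pcdhb6, Pcdhb8, Pcdhb11, Pcdhb12, Pcdhb14, Pcdhb16, Pcdhb17 and Pcdhb19). The largest estimate was that of Pcdhb6 (-2.62 ± 0.60 SE, FDR 0.00568), and Pcdhb17 had -0.68 ± 0.19 (SE, FDR 0.0217). The estimate was below 0 for all 21 beta genes tested (median -1.24), with a median of -1.49 in the first and -0.68 in the last stretch. It was above 0 for 49.9% of all tested genes. Over the 21 beta genes, Spearman's rho of the estimate was 0.81 with order and 0.57 with the unique share of own 50-base stretches. It was also 0.57 with the proliferating Kat6a+/+ level in RPKM. Order and that level went together (rho 0.79), so that position and starting level cannot be told apart here either. In the gamma cluster 0 of 21 passed (median -0.33), and Pcdhgc5 had an estimate of 0.96 ± 0.51 (SE, FDR 0.21) and Pcdhac2 of 0.83 ± 0.86 (SE, FDR 0.563). Without proliferating Kat6a+/+ replicate 1, the count was 4, which were Pcdhb6, Pcdhb11, Pcdhb14 and Pcdhb16, and without differentiating Kat6a+/+ replicate 1 it was 8. The count was 14 without differentiating Kat6a+/+ replicate 2, Kat6a-/- replicate 3 or proliferating Kat6a+/- replicate 4, 15 without differentiating Kat6a+/- replicate 2 and 19 without differentiating Kat6a-/- replicate 2. Leaving out a library can also change how many of all genes are called. These counts alone therefore do not show a change particular to the beta genes. By the interaction test, 0 members differed for Kat6a+/- (6 at an unadjusted p under 0.05, beside 412 of all genes).

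**Figure D5:**
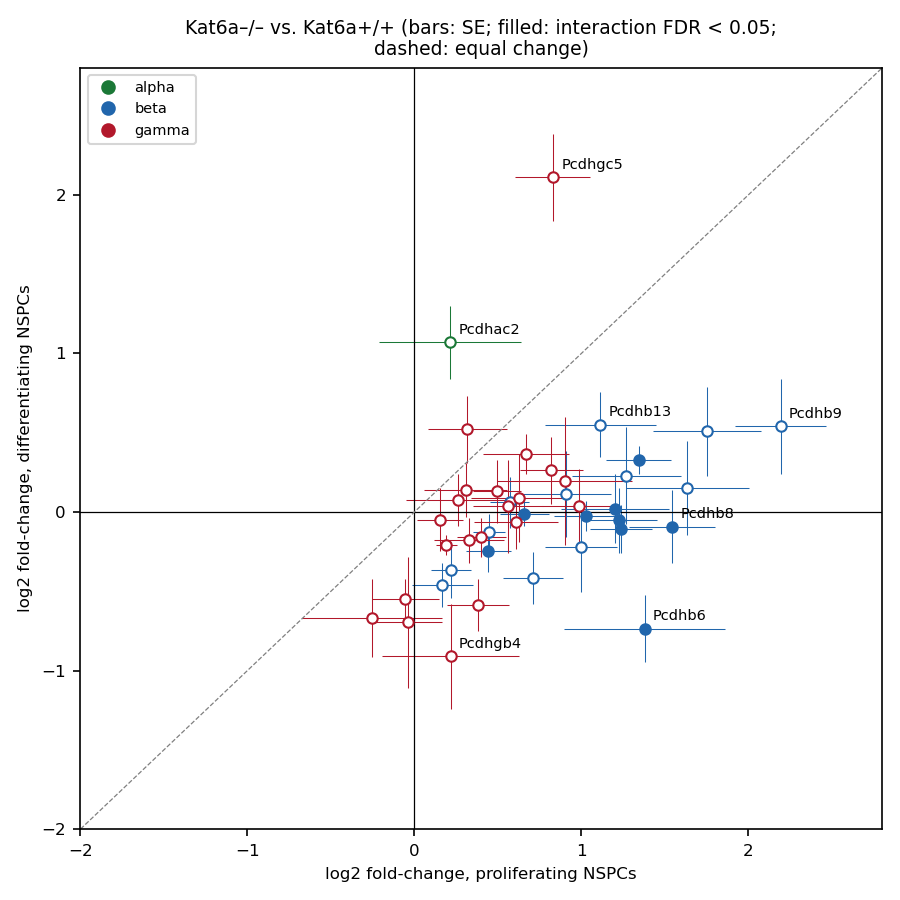
Log2 fold-change in Kat6a-/- vs. Kat6a+/+ of each member tested in both conditions, in proliferating (x axis) against differentiating (y axis) NSPCs, with SE bars and filled points for the 9 members called in the interaction. The 21 beta genes lie below the dashed line of equal change, at 0.17 to 2.19 on the x axis and -0.74 to 0.55 on the y axis, while Pcdhgc5 (0.83 and 2.11) and Pcdhac2 (0.21 and 1.07) lie above it.

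Across all 24 libraries, Pearson's r of log2(CPM + 1) named the members most like the highest member of each cluster, as a description of libraries that share condition and depth. Pcdhac2 was most like Pcdha12 (r = 0.92), followed by Pcdhb14 and Pcdhb17 (both r = 0.83). Pcdhb17 was most like Pcdhb20 and Pcdhb14 (both r = 0.95), which are genes of the same stretch. For Pcdhgc3 the highest r was lower, at 0.53 with Pcdhgb7.

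Genes that act on the clusters were described as lists. Among the 12 genes of CTCF and cohesin, which fold the clusters into loops between promoters and enhancers, 6 were lower and 0 higher in proliferating Kat6a-/- NSPCs (median log2 fold-change -0.19, with Smc1a at -0.35 and Stag2 at -0.30), beside 13.8% of all tested genes lower. In differentiating NSPCs 9 were lower and 0 higher (median -0.25), with Ctcf itself at -0.61 ± 0.05 (SE, FDR 4.95e-06) and the cohesin subunit gene Rad21 at -0.57, beside 27.7% of all tested genes lower. Among 21 genes of silencing and DNA methylation, 1 was higher and 6 lower in proliferating NSPCs (median -0.09), beside 16.2% and 13.8% of all tested genes, with Uhrf1 at -0.55 and Dnmt1 at -0.39, which together maintain DNA methylation in dividing cells. In differentiating NSPCs 2 were higher and 16 lower (median -0.44), beside 26.7% and 27.7%, with Uhrf1 at -2.78 and Dnmt1 at -0.95. The markers of dividing cells above moved in the same direction as these 2 genes.

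Of 22 genes for signalling partners of the protocadherin cytoplasmic domains and related membrane proteins, 20 were tested in proliferating NSPCs, with 5 higher and 3 lower (median 0.07), beside 16.2% and 13.8% of all tested genes. The synaptic adhesion gene Nlgn1 was at 1.23 and Wasf1, a regulator of actin, at -0.41. In differentiating NSPCs 11 were higher and 4 lower (median 0.16), beside 26.7% and 27.7% of all tested genes, with the kinase gene Ptk2b at 3.45 and Wasf1 at -1.03. Genes around the clusters were called in both directions. Of 37 genes within 1 Mb outside the clusters, 34 were tested in proliferating NSPCs, with 4 higher and 5 lower (median 0.00), beside 30% of all tested genes called. Taf7, which lies between the beta and gamma clusters and encodes a subunit of the general transcription factor TFIID, had a log2 fold-change of 0.03 in proliferating and -0.98 ± 0.18 (SE, FDR 0.00074) in differentiating Kat6a-/- NSPCs. In differentiating NSPCs 13 of 33 tested neighbours were higher and 6 lower (median -0.05), beside 54.4% of all tested genes called.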

How the data were processed

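The deposited values are raw read counts for each gene and a gene length, which the authors obtained by aligning to mm39 (Rsubread) and counting with featureCounts over strict RefSeq exons. Software versions and the strand setting are not given in the sources used here. Libraries were grouped by the genotype and condition in the labels. The members, gene lists and tests were chosen with earlier results of these data known. Genes annotated as protein-coding in a RefSeq table that passed filterByExpr of edgeR 4.0.16 were kept, without Xist and genes unique to the Y chromosome, with TMM scaling. For proliferating libraries, limma-voom (limma 3.58.1) was run with litter as a random block (correlation 0.287). Differentiating libraries were fitted with limma-trend (prior count 2) and quality weights from arrayWeights. A voom fit of all 24 libraries gave condition and interaction. All used robust moderation, and each FDR is Benjamini-Hochberg adjusted over all genes tested (12273, 13335 and 13582). Printed CPM are counts over TMM-scaled totals of the 24 libraries, without weights, so a fitted fold-change can differ from the ratio of mean CPM. Positions and exons came from the GENCODE mm39 annotation.

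Within a condition the libraries carry separate embryo labels, and 6 labels occur in both conditions. No replicate pair agreed within sampling noise (lowest chi-square per degree of freedom 5.81 over 36 pairs). Values by library were given, in the comparisons that describe them, for the C-type isoforms, the member of each cluster with the highest RPKM, the called members with the largest rise and fall in each cluster and condition, the member with the smallest Kat6a+/- p in each condition and that with the largest interaction. Scripts were tested on simulated data. Alternatives were edgeR and DESeq2 1.42.0 tests, other scalings, no filter on low counts, litter, weights, replicate number and sex-linked reads as terms, leaving out each library and, chosen after seeing the data, all biotypes and embryo label as the block.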

Additional observations from a re-analysis of the deposited data

Results flagged for a closer look

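In 11 of 90 groups of 4 libraries examined, 1 library lay farther from the other 3 than Dixon's 95% critical value allows, where chance alone flags about 1 in 20 groups. In proliferating Kat6a+/- NSPCs these were replicate 1 for Pcdhac1 (0.161 CPM, others at 0), replicate 3 for Pcdhac2 (3.02 CPM, others 1.53 to 1.71 CPM) and for the summed alpha cluster (4.00 CPM, others 2.41 to 2.44 CPM), and replicate 4 for Pcdhgc5 (4.49 CPM, others 1.85 to 1.96 CPM) and Pcdhb17 (15.2 CPM, others 11.6 to 12.2 CPM). In proliferating Kat6a+/+ NSPCs they were replicate 3 for Pcdhgc5 (2.82 CPM, others 2.28 to 2.33 CPM) and replicate 2 for Pcdhgb4 (8.12 CPM, others 5.20 to 5.66 CPM). In differentiating NSPCs, Pcdhb8 was low in Kat6a+/+ replicate 2 (3.39 CPM, others 4.62 to 4.82 CPM) and in Kat6a+/- replicate 2 (1.74 CPM, others 4.12 to 4.46 CPM). The beta sum was low in the same Kat6a+/- library (257 CPM, others 329 to 341 CPM), and Pcdhgc3 was high in Kat6a-/- replicate 2 (811 CPM, others 623 to 655 CPM).

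The effect of Kat6a-/- differed between conditions by the interaction test for 9 beta genes, with estimates of -1.47 for Pcdhb5, -2.62 for Pcdhb6, -1.82 for Pcdhb8, -1.50 for Pcdhb11, -1.27 for Pcdhb12, -1.03 for Pcdhb14, -1.13 for Pcdhb16, -0.68 for Pcdhb17 and -0.82 for Pcdhb19 on the log2 scale.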

How the results depend on the processing

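Of the called members in proliferating Kat6a-/- vs. Kat6a+/+ NSPCs, no fold-change changed sign under any alternative, but the 24 calls became 13 with litter as a fixed term and ranged from 15 (without Kat6a+/+ replicate 1) to 26 when single libraries were left out. In differentiating NSPCs the 13 calls became 3 with edgeR, 8 with DESeq2, 6 without a filter on low counts, 1 with litter as a fixed term, 4 without quality weights, 3 with the litter block in place of the weights and 3 with a term for sex-linked reads, and ranged from 0 (without Kat6a-/- replicate 1 or 3) to 19 (without Kat6a-/- replicate 2) when single libraries were left out. Here Pcdhb15 (log2 fold-change -0.46 to 0.084 without single libraries) changed sign without Kat6a-/- replicate 1 and without replicate 3 (0.03), and Pcdhga1 (-0.76 to 0.095) without replicate 3. In Kat6a+/- vs. Kat6a+/+ differentiating NSPCs, DESeq2 called 1 member, and leaving out libraries gave 0 to 2 (2 without Kat6a+/- replicate 3). In proliferating NSPCs this comparison stayed at 0 throughout. For Kat6a-/- vs. Kat6a+/- the 17 calls in proliferating NSPCs became 8 with edgeR and 10 without the litter block, and 5 to 17 without single libraries. The 7 in differentiating NSPCs became 1 with edgeR, 2 with DESeq2, 1 without the filter, 0 with litter as a fixed term (5 at an unadjusted p under 0.05), 1 without weights, 1 with the litter block, 1 with sex-linked reads and 3 with all biotypes, and 0 to 16 without single libraries, where Pcdhga1 (-0.71 to 0.15) changed sign without Kat6a-/- replicate 3. The 9 interaction calls became 14 with DESeq2 and 18 with library totals, and 4 to 19 without single libraries. Library totals moved the log2 fold-change median over all genes by -0.15 in differentiating Kat6a-/- vs. Kat6a+/+ NSPCs, by -0.12 against Kat6a+/- and by -0.15 in the Kat6a-/- interaction. The 32 calls between conditions stayed within 1.5 times throughout. Each alternative can also change how many of all genes are called, and those shares are not printed beside the counts of members. The causes were not tested.

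Replicate numbers did not pair the libraries. Deviations from group means of same-numbered libraries correlated between -0.444 and 0.580 in proliferating (4 of 12 above 0.1) and between -0.520 and 0.154 in differentiating NSPCs (1 of 12). A fit with the replicate number as a block gave 22, 14, 0 and 0 calls for Kat6a-/- and Kat6a+/- vs. Kat6a+/+ (proliferating, then differentiating, for each), 13 and 1 for Kat6a-/- vs. Kat6a+/-, 31 between conditions, and 9 and 0 for the interactions. The smallest difference that could be detected was not computed, so a member that was not called may still differ. Most alpha isoforms had too few counts to be tested.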

Other observations

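Of the 15 alpha isoforms, 11 were tested in neither condition. Pcdha6 had 0 counts in all 24 libraries together, Pcdha4b had 1, Pcdha7 had 2 and Pcdha4 had 3, while Pcdha1 and Pcdha3 had 26 each and Pcdha11 had 59. Of the annotated exon bases, only 8.56% of Pcdha4 and 0% of Pcdha4b belonged to that gene alone. Pcdha12, the alternate alpha isoform nearest the C-type isoforms, had the highest count of the alternate alpha isoforms at 570. The level did not rise steadily along the cluster, since Pcdhac1, which follows Pcdha12, had 82 and Pcdhac2 had 4950. Pcdhgb8, the gamma gene left out as a pseudogene, averaged 1.89 ± 0.28 and 2.40 ± 0.36 CPM in proliferating and 2.65 ± 0.67 and 1.65 ± 0.65 CPM in differentiating Kat6a+/+ and Kat6a-/- NSPCs (SD, n = 4).

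Pcdhga12, chosen after its values were seen, was at 3.40, 20.1, 6.46 and 6.38 CPM in proliferating and at 2.68, 22.9, 3.62 and 3.88 CPM in differentiating Kat6a-/- libraries, replicates 1 to 4. The 2 high libraries carry the same embryo label. In Kat6a+/+ it was at 4.60, 3.67, 3.12 and 3.04 CPM and at 2.37, 4.26, 5.70 and 1.72 CPM. It was not called in either condition. For each of the 6 embryo labels that occur in both conditions, the deviations of 39 beta and alternate gamma members from their group means were correlated between that proliferating library and all 12 differentiating libraries, a measure chosen after seeing the data. The library with the same label gave the highest r for 2 labels, Kat6a-/- replicate 2 in both conditions (0.75) and Kat6a+/- replicate 3 with differentiating replicate 1 (0.52). For the label whose sex-linked reads disagreed, r was -0.46, which ranked 9 among the 12. That proliferating library had its highest r (0.58) with differentiating Kat6a+/+ replicate 2, which carried Xist reads. For the remaining 3 labels, r with the same label ranged from 0.02 to 0.26. These are descriptions across genes, which are not independent.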
